A study of Saccharomyces cerevisiae with 12 samples.

Results

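The genes of 10 β-1,3-glucan synthases and glucan-remodelling enzymes of budding yeast were followed across a gene deletion and a change of carbon source. They were chosen by name from 5917 coding sequences counted, with earlier results of these data known. The catalytic subunits of glucan synthase are *FKS1* (YLR342W) and *GSC2* (YGR032W, also called *FKS2*). The glucanosyltransferases are *GAS1* (YMR307W), *GAS3* (YMR215W) and *GAS5* (YOL030W). The remaining genes encode secreted wall enzymes, namely *BGL2* (YGR282C), *SCW4* (YGR279C), *SCW10* (YMR305C), *EXG1* (YLR300W) and *CRH1* (YGR189C).

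β-1,3-glucan is the load-bearing polymer of the yeast cell wall. It is spun out through the plasma membrane by a synthase that draws on UDP-glucose inside the cell and is switched on by the small GTPase Rho1. Once outside, the chains are lengthened, branched, trimmed and tied to chitin and β-1,6-glucan by enzymes held in the wall or on the membrane, which lets the wall grow with the cell.

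RNA sequencing compared wild-type BY4741, a haploid laboratory strain, with *mrn1Δ* cells of the same background, which carry a kanamycin cassette integrated at *MRN1*, the gene of an RNA-binding protein. Each genotype was harvested in fermentative growth, at an OD600 of 0.6 in YEPD with 2% glucose, and in the respiratory stage, 20 minutes after transfer of such a culture to YEPEG with 2% ethanol and 2% glycerol. The 4 groups had 3 libraries each, from triplicate cultures, and the sources used here do not say how many independent deletion clones were used. The comparisons ask how *MRN1* shapes transcript levels in each stage and how the shift changes them in each genotype.

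The 12 libraries held 16231559 to 26542199 estimated counts, and the counts of the glucan genes ran from 1018 for *EXG1* to 74014 for *FKS1* in a single library. *MRN1* had 2 to 15 counts in *mrn1Δ* libraries and 1676 to 3303 in wild-type libraries, as the labels say. *LEU2*, *MET17* and *URA3*, which BY4741 lacks, had 0 to 12 counts in any library. *HIS3*, which is deleted only in part in this strain, had 350 to 1545. Markers of the **a** mating type summed to 326 to 728 normalized CPM (each count scaled to a common library total, with TMM factors between libraries), and those of the α mating type to 7.1 to 11.3. Not every single marker separated. In TPM, which corrects for gene length, *MFA1* of the **a** type (15.7 to 35.9) overlapped *MF(ALPHA)2* of the α type (13.4 to 24.5). Genes of the carbon shift, such as the alcohol dehydrogenase gene *ADH2*, summed to 1440 to 1823 normalized CPM in fermentative and 7508 to 9875 in respiratory libraries. Levels are shares of the sequenced RNA, so that less of a transcript per cell and more of the other RNA cannot be told apart.

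A few libraries stood apart within their groups. Wild-type fermentative replicate 2 had the highest level of 9 of the 10 glucan genes in its group, *mrn1Δ* fermentative replicate 3 had the lowest level of all 10, and wild-type respiratory replicate 2 had the highest level of 8. Values are given without these libraries where leaving them out changed a call or moved a pairwise value by over 1.5 times.

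In fermentative growth every glucan gene was higher in every *mrn1Δ* library than in every wild-type library, by 1.18- to 1.98-fold. The test across all genes called 4 of them higher, *GSC2*, *EXG1*, *BGL2* and *SCW4*, where 0.588% of all genes tested were called higher. In the respiratory stage *GSC2*, *EXG1* and *BGL2* were called higher, against 6.79% of all genes. There *FKS1*, *CRH1* and *SCW10* stood below wild-type in all *mrn1Δ* libraries without passing the test. The share of all genes that lay below in this way was not counted. The shift lowered 5 of the genes in wild-type and 9 in *mrn1Δ*, where 36.4% and 40.3% of all genes were called lower, and raised *GSC2* in both genotypes.

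**Figure D1:**
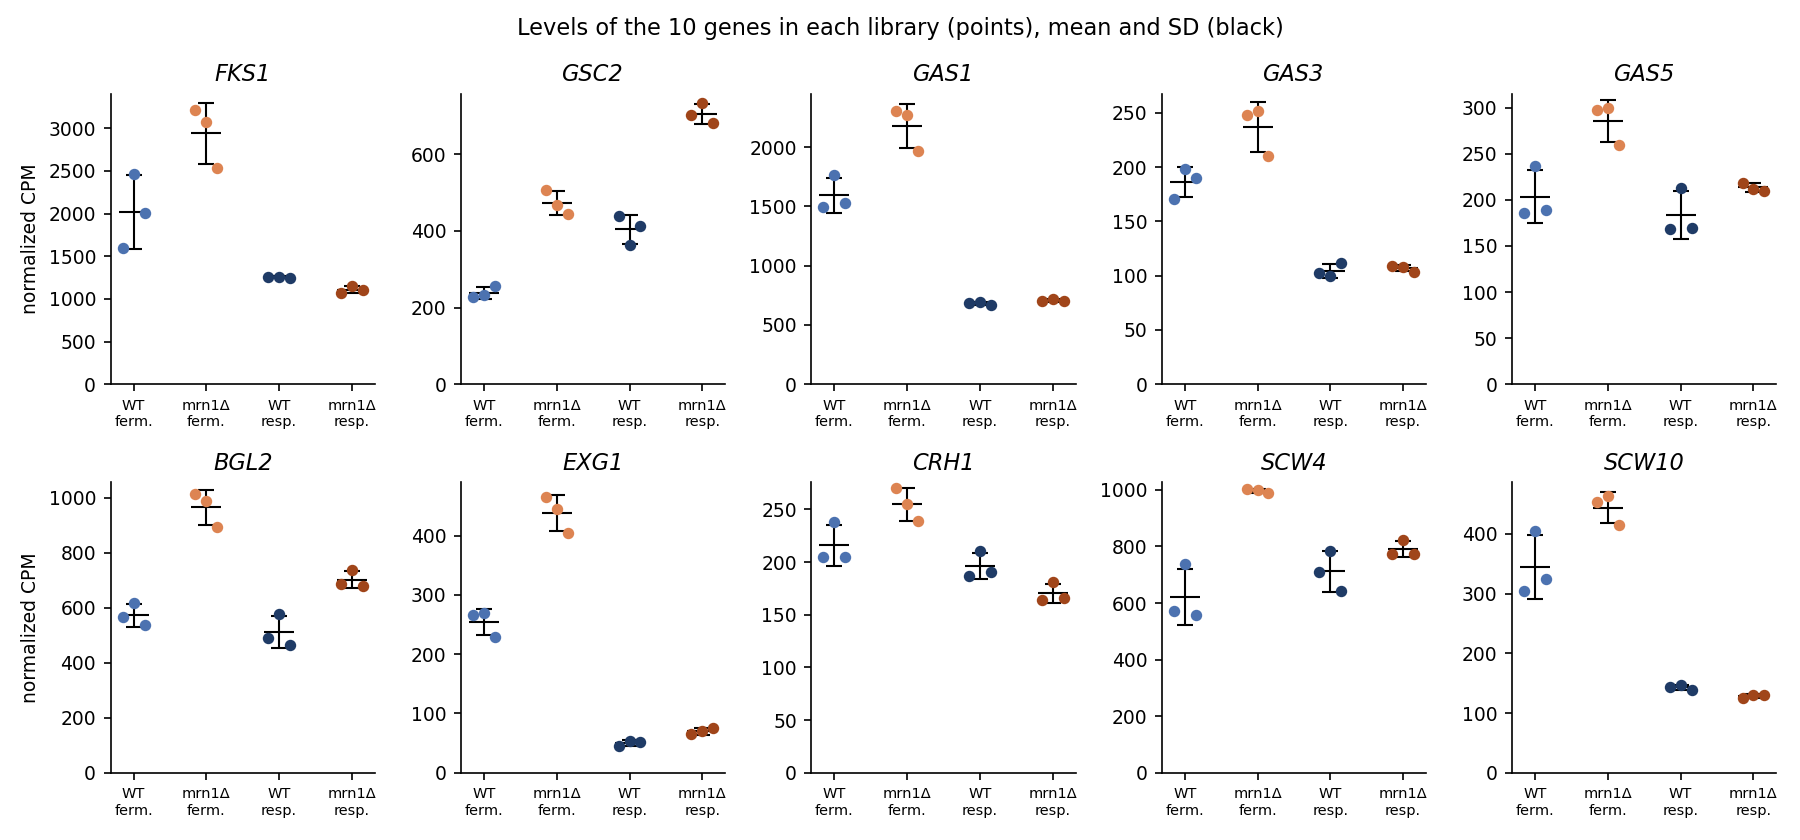
Normalized CPM of the 10 glucan genes (vertical axes, linear, from 0) in wild-type (WT) and mrn1Δ libraries in fermentative (ferm.) and respiratory (resp.) growth, with a point per library and the mean and SD of 3 libraries in black. In fermentative growth all mrn1Δ points lie above all wild-type points in all 10 panels, and only GSC2 has its highest mean in the mrn1Δ respiratory libraries, at 705.5.

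The synthase genes are close copies on different chromosomes. *FKS1* lies at chrXII:809997-815627 on the plus strand of the R64 build and *GSC2* at chrVII:548264-553951 on the plus strand, each as a single uninterrupted coding sequence, of 1876 and 1895 codons before the stop. Their products were identical at 89.3% of aligned residues. At the DNA level the copies had diverged, and only 23 of the 5601 words of 31 bases in *FKS1* occurred in *GSC2*. Because the read counter splits reads that match both genes, the longest stretch they share is shown, 38 bases in capitals, with flanking bases that tell the genes apart in lower case.
*FKS1*, coding positions 2380 to 2447, chrXII:812376-812443, plus strand: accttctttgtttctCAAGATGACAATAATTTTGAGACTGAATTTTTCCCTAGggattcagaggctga
*GSC2*, coding positions 2437 to 2504, chrVII:550700-550767, plus strand: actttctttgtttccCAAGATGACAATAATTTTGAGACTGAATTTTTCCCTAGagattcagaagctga
Estimated counts that were not whole, the mark of split reads, occurred in 10 of the 12 libraries for each gene. The shared words made up 0.411% of those of *FKS1* and 0.407% of those of *GSC2*, so that few reads could be split.

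*FKS1*, the main synthase gene of cells growing on glucose, measured 1600, 2465 and 2003 normalized CPM in the wild-type fermentative libraries and 3212, 3071 and 2535 in the *mrn1Δ* fermentative libraries. In the respiratory stage the values were 1260, 1262 and 1245 in wild-type and 1074, 1157 and 1100 in *mrn1Δ*. The genotypes did not overlap in either stage, with *mrn1Δ* above wild-type on glucose and below it after the shift. The wild-type fermentative values had a coefficient of variation of 21.4%, the widest of any group among the 10 glucan genes. In edgeR's quasi-likelihood test, with p-values adjusted by Benjamini-Hochberg over all genes tested, the genotype difference was 0.55 ± 0.16 (log2 fold change ± SE, adjusted p = 0.176) on glucose and -0.18 ± 0.07 (adjusted p = 0.107) after the shift, and neither was called at an adjusted p under 0.05. The shift itself lowered *FKS1* in wild-type by 1.61-fold (-0.66 ± 0.14, adjusted p = 0.0024) and in *mrn1Δ* by 2.65-fold (-1.40 ± 0.09, adjusted p = 1.7e-07).

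*GSC2*, the alternative synthase gene, known for its induction when glucose runs out, moved the other way with the shift. Its normalized CPM were 227.9, 232.0 and 256.1 in wild-type and 506.5, 466.8 and 444.1 in *mrn1Δ* fermentative libraries. After the shift they were 438.1, 363.1 and 411.4 in wild-type and 703.3, 732.7 and 680.4 in *mrn1Δ*. The genotypes did not overlap in either stage, nor did the stages in either genotype. In *mrn1Δ* cells on glucose and in shifted wild-type cells the levels lay close together without overlap, with 444.1 to 506.5 against 363.1 to 438.1 normalized CPM. On the TPM scale they overlapped (77.1 to 89.4 against 77.9 to 94.6). On that scale the median log2 ratio of all genes tested was 0.34 for the wild-type shift. The deletion raised *GSC2* by 1.98-fold on glucose (0.99 ± 0.09, adjusted p = 8.4e-04) and by 1.75-fold after the shift (0.80 ± 0.08, adjusted p = 1.9e-04). The shift raised it by 1.69-fold in wild-type (0.78 ± 0.10, adjusted p = 7.1e-05) and by 1.49-fold in *mrn1Δ* (0.58 ± 0.07, adjusted p = 1.9e-05). The interaction of deletion and shift was not called (-0.18 ± 0.12, adjusted p = 0.425), and the mean in *mrn1Δ* cells after the shift was 2.96 times that of wild-type cells on glucose.

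The share of *GSC2* among the synthase transcripts was read within each library. *GSC2* gave 12.4%, 8.53% and 11.2% of the summed TPM (a share of all transcripts, corrected for gene length) of *FKS1* and *GSC2* in the wild-type fermentative libraries and 13.5%, 13.1% and 14.8% in *mrn1Δ*. After the shift it gave 25.6%, 22.2% and 24.7% in wild-type and 39.3%, 38.5% and 38.0% in *mrn1Δ*. The share was higher in *mrn1Δ* and higher after the shift, without overlap, and was farthest apart between wild-type cells on glucose and shifted *mrn1Δ* cells. Each of the 4 contrasts of the share had p = 0.1 in a two-sided exact permutation test, the smallest that 3 against 3 libraries allow, and 0.1 after adjustment over the 12 ratio comparisons made. With the counts of both genes summed, the total fell with the shift in wild-type (-0.42 ± 0.14, adjusted p = 0.0188) and in *mrn1Δ* (-0.91 ± 0.09, adjusted p = 3.2e-06). The genotype difference of the sum was not called on glucose (0.60 ± 0.14, adjusted p = 0.134) or after the shift (0.13 ± 0.07, adjusted p = 0.244).

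**Figure D2:**
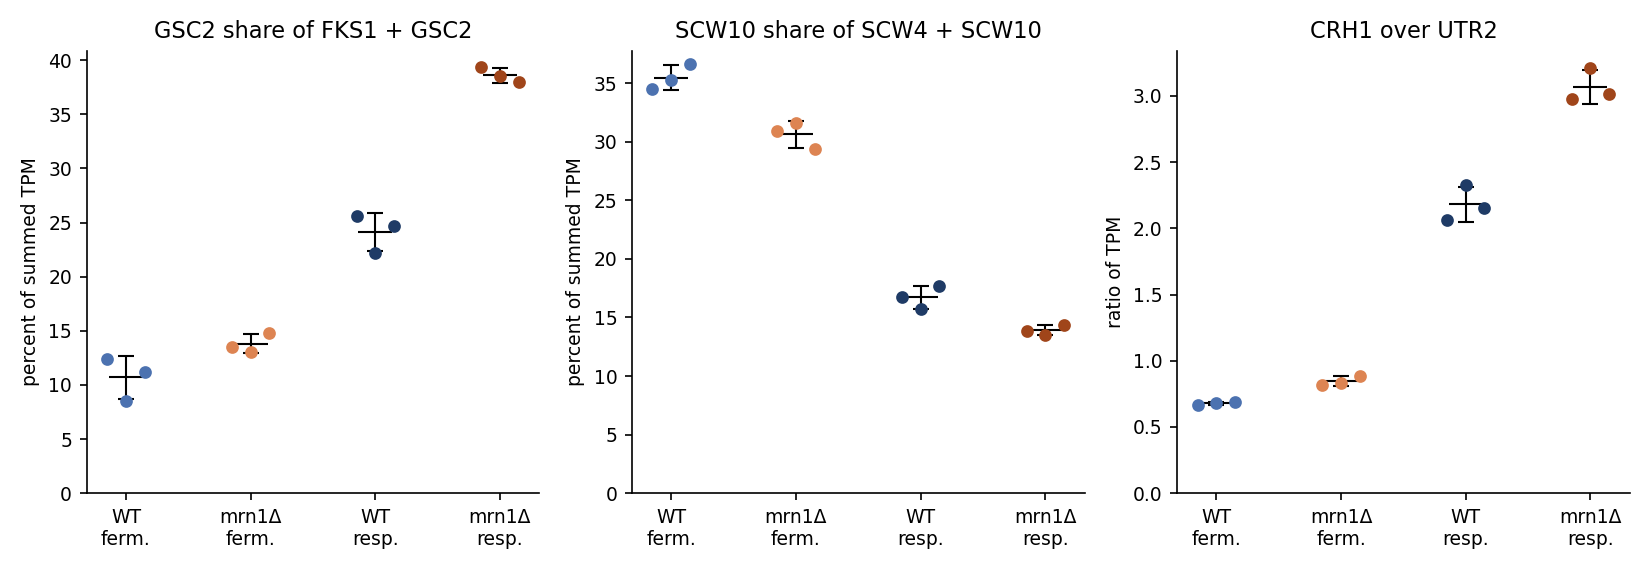
Ratios within each library (points; mean and SD of 3 libraries in black) for wild-type (WT) and mrn1Δ cells in fermentative (ferm.) and respiratory (resp.) growth. The left panel gives GSC2 as a percent of the summed TPM of FKS1 and GSC2, from 8.53% to 39.3%, the middle panel SCW10 as a percent of SCW4 and SCW10, from 36.6% down to 13.5%, and the right panel the TPM of CRH1 over that of UTR2, from 0.662 to 3.21.

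The *GAS* genes encode enzymes anchored to the plasma membrane that cut a glucan chain and join it to another, with *GAS1* the main family member in growing cells. *GAS1* lies at chrXIII:887003-888682, *GAS3* at chrXIII:696796-698370 and *GAS5* at chrXV:268187-269641, all on the plus strand. Their products were identical at 39.4% of aligned residues for Gas1 and Gas3, 41.9% for Gas1 and Gas5 and 42.2% for Gas3 and Gas5, and none of their 31-base words occurred in another coding sequence.

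*GAS1* measured 1496, 1766 and 1527 normalized CPM in wild-type and 2307, 2270 and 1966 in *mrn1Δ* on glucose. After the shift the values were 685.3, 696.4 and 671.3 in wild-type and 706.3, 722.3 and 698.3 in *mrn1Δ*. The genotypes stood apart on glucose, and after the shift they did not overlap either. The deletion effect on glucose was 1.37-fold (0.46 ± 0.10, adjusted p = 0.0948) and was not called, nor was that after the shift (0.05 ± 0.06, adjusted p = 0.637). The shift lowered *GAS1* by 2.33-fold in wild-type (-1.20 ± 0.10, adjusted p = 3.2e-06) and by 3.08-fold in *mrn1Δ* (-1.62 ± 0.08, adjusted p = 1.2e-08).

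*GAS3*, a family member whose enzymatic activity is less well established, stood at 170.8, 198.2 and 190.2 normalized CPM in wild-type and 247.9, 251.8 and 210.0 in *mrn1Δ* on glucose. After the shift it stood at 102.4, 99.4 and 111.8 in wild-type and 109.2, 107.7 and 103.8 in *mrn1Δ*, and there the genotypes overlapped. The deletion effect was 0.35 ± 0.10 (adjusted p = 0.167) on glucose and 0.03 ± 0.06 (adjusted p = 0.768) after the shift, where it ranged from -0.002 without wild-type replicate 2 to 0.08 without wild-type replicate 3. The fall with the shift was 1.78-fold in wild-type (-0.81 ± 0.08, adjusted p = 1.8e-05) and 2.21-fold in *mrn1Δ* (-1.15 ± 0.08, adjusted p = 2.1e-07).

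*GAS5*, an active glucanosyltransferase gene, measured 185.4, 236.9 and 188.7 normalized CPM in wild-type and 297.0, 299.9 and 259.8 in *mrn1Δ* on glucose. In the respiratory libraries it measured 168.0, 213.3 and 169.4 in wild-type and 218.8, 212.1 and 210.1 in *mrn1Δ*. Replicate 2 was the high library in both wild-type groups. The shift was not called in wild-type (-0.13 ± 0.12, adjusted p = 0.373), where the value ranged from -0.24 without respiratory replicate 2 to 0.001 without fermentative replicate 2, and lowered *GAS5* by 1.34-fold in *mrn1Δ* (-0.42 ± 0.07, adjusted p = 2.2e-04). The deletion effect was 0.49 ± 0.11 (adjusted p = 0.0948) on glucose and 0.22 ± 0.09 (adjusted p = 0.126) after the shift. Without wild-type respiratory replicate 2 the latter became 0.34 with an adjusted p of 0.00214.

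*BGL2*, *SCW4* and *SCW10* belong to a shared glucanase family of the wall. *BGL2* encodes an abundant wall protein that cuts glucan chains internally and rejoins them, and *SCW4* and *SCW10* encode related soluble wall proteins. *BGL2* lies at chrVII:1057783-1058724 and *SCW4* at chrVII:1048798-1049958, 7824 bases apart with *PXR1* and *YOR1* between them, and *SCW10* lies at chrXIII:879063-880232, 6770 bases from *GAS1* with only *FKS3* between. All 3 are on the minus strand. Scw4 and Scw10 were identical at 63.2% of aligned residues, and Bgl2 at 30.8% with Scw4 and 29.0% with Scw10. *SCW4* and *SCW10* shared 2 words of 31 bases, and their counts were not whole in 2 libraries.

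*BGL2* measured 565.0, 617.5 and 536.2 normalized CPM in wild-type and 1014, 987.0 and 893.0 in *mrn1Δ* on glucose. Respiratory values were 490.0, 575.6 and 465.4 in wild-type and 685.9, 737.6 and 680.6 in *mrn1Δ*. The *mrn1Δ* libraries lay above wild-type in both stages with wide gaps. The deletion raised *BGL2* by 1.68-fold on glucose (0.76 ± 0.09, adjusted p = 0.00347) and by 1.37-fold after the shift (0.46 ± 0.09, adjusted p = 0.00779). The shift was not called in wild-type (-0.14 ± 0.10, adjusted p = 0.234), where the value ranged from -0.23 without respiratory replicate 2 to -0.08 without fermentative replicate 2, and lowered it by 1.38-fold in *mrn1Δ* (-0.46 ± 0.07, adjusted p = 1.3e-04).

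*SCW4* measured 573.3, 736.8 and 558.3 normalized CPM in wild-type and 1003, 998.3 and 990.0 in *mrn1Δ* on glucose. After the shift it measured 708.8, 785.1 and 640.9 in wild-type and 773.4, 824.2 and 774.0 in *mrn1Δ*, where the groups overlapped. The deletion raised *SCW4* by 1.60-fold on glucose (0.68 ± 0.10, adjusted p = 0.0164), and this call was lost in 4 of the 6 fits without a library (wild-type replicate 3 or any *mrn1Δ* replicate), with adjusted p up to 0.11. After the shift the difference was 0.15 ± 0.08 (adjusted p = 0.255), and it ranged from 0.08 without wild-type replicate 3 to 0.23 without wild-type replicate 2, with no call. *SCW4* was the member whose shift response pointed in opposite directions, with 0.22 ± 0.13 (adjusted p = 0.142) in wild-type and a fall of 1.26-fold in *mrn1Δ* (-0.33 ± 0.05, adjusted p = 2.1e-04). Pairing the wild-type cultures across the shift by their replicate numbers, as a block in the fit, gave 0.22 ± 0.08, which passed (adjusted p = 0.0346), as did the value without wild-type fermentative replicate 2 (0.36, adjusted p = 0.0205). That the numbers pair these cultures was not established. On the ratio of mean TPM the *mrn1Δ* value was 0.02, where the median of all genes tested was 0.40.

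*SCW10* measured 303.9, 405.1 and 325.0 normalized CPM in wild-type and 452.6, 464.1 and 415.0 in *mrn1Δ* on glucose. After the shift it measured 143.3, 147.6 and 139.0 in wild-type and 125.1, 129.9 and 130.8 in *mrn1Δ*. As for *FKS1*, *mrn1Δ* stood above wild-type on glucose (0.37 ± 0.11, adjusted p = 0.184) and below it after the shift (-0.16 ± 0.05, adjusted p = 0.0636), without overlap and without a call. The shift lowered *SCW10* by 2.41-fold in wild-type (-1.24 ± 0.11, adjusted p = 5.5e-06) and by 3.45-fold in *mrn1Δ* (-1.79 ± 0.07, adjusted p = 2.0e-09).

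*SCW10* made up 34.5%, 35.3% and 36.6% of their summed TPM in wild-type and 30.9%, 31.6% and 29.4% in *mrn1Δ* on glucose. After the shift the share was 16.7%, 15.7% and 17.7% in wild-type and 13.8%, 13.5% and 14.4% in *mrn1Δ*. The share was lower in *mrn1Δ* and lower after the shift, with no overlap between groups and with p = 0.1 in each exact permutation test, the smallest possible. The summed counts of the pair rose with the deletion on glucose (0.58 ± 0.11, adjusted p = 0.0439) and fell with the shift in *mrn1Δ* (-0.65 ± 0.06, adjusted p = 1.5e-06).

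*EXG1*, which encodes the main secreted enzyme that releases glucose from chain ends, lies at chrXII:728955-730301 on the plus strand. It measured 265.6, 268.6 and 229.7 normalized CPM in wild-type and 464.9, 445.2 and 404.3 in *mrn1Δ* on glucose. The respiratory libraries held 45.4, 54.0 and 51.6 in wild-type and 64.5, 70.3 and 76.3 in *mrn1Δ*. Of the 10 genes it fell most, by 5.06-fold in wild-type (-2.31 ± 0.09, adjusted p = 6.3e-08) and by 6.23-fold in *mrn1Δ* (-2.64 ± 0.09, adjusted p = 9.7e-10). The deletion nevertheless raised it in both stages, by 1.72-fold on glucose (0.79 ± 0.09, adjusted p = 0.00347) and by 1.40-fold after the shift (0.49 ± 0.08, adjusted p = 0.00459).

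*CRH1*, at chrVII:876669-878192 on the minus strand, encodes a transglycosylase that ties chitin to glucan. It measured 204.8, 238.3 and 204.9 normalized CPM in wild-type and 270.3, 255.6 and 239.1 in *mrn1Δ* on glucose. In the respiratory stage the values were 187.0, 210.5 and 191.1 in wild-type and 164.4, 181.0 and 165.6 in *mrn1Δ*. The deletion effect was the smallest of the 10 on glucose (0.24 ± 0.09, adjusted p = 0.236) and pointed down after the shift (-0.20 ± 0.06, adjusted p = 0.0597). The shift was not called in wild-type (-0.11 ± 0.09, adjusted p = 0.248; -0.04 without fermentative replicate 2) and lowered *CRH1* by 1.50-fold in *mrn1Δ* (-0.58 ± 0.07, adjusted p = 1.7e-05).

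*UTR2*, also called *CRH2*, encodes the other vegetative chitin transglycosylase and behaved differently. It fell with the shift by 3.54-fold in wild-type, from 292.7 to 82.6 normalized CPM (-1.80 ± 0.08, adjusted p = 9.0e-08), and in the respiratory stage it was lower in *mrn1Δ*, at 51.0 (-0.70 ± 0.05, adjusted p = 2.4e-05). The TPM ratio of *CRH1* to *UTR2* was 0.662 to 0.688 in wild-type and 0.816 to 0.886 in *mrn1Δ* on glucose, and 2.07 to 2.32 in wild-type and 2.97 to 3.21 in *mrn1Δ* after the shift. *CRH1* was thus the lesser of the pair in every fermentative library and the greater in every respiratory library, with p = 0.1 in each exact permutation test between groups.

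Counted together in fermentative growth, 4 of the 10 glucan genes were called higher in *mrn1Δ* and 0 lower, where 0.588% of all genes tested were called higher and 0.328% lower. The fitted values were positive for 10 of 10, with a median of 0.52 against -0.02 over all genes. By the spread of the libraries alone, 10 of 10 had every *mrn1Δ* library above every wild-type library, where 10.3% of all genes did. All 10 had an unadjusted p under 0.05, a share that was not counted over all genes. DESeq2 called 9 higher, where it called 151 of 5785 genes higher. The fit over all 12 libraries also called 9, where it called 132 of 5828 genes higher. Without wild-type fermentative replicate 2, *GAS1*, *GAS5* and *SCW10* joined the calls, which made 7. The summed level of the 10 genes was 0.305% to 0.384% of TPM in wild-type and 0.469% to 0.541% in *mrn1Δ*.

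In the respiratory stage 3 of the 10 were called higher and 0 lower, where 6.79% of all genes were called higher and 7.83% lower. Fitted values were positive for 7 and negative for 3, with a median of 0.10 against 0.00 over all genes. Every *mrn1Δ* library stood above every wild-type library for 4, *GSC2*, *GAS1*, *BGL2* and *EXG1*, where 16.8% of all genes did. An unadjusted p under 0.05 was reached by 7 of the 10 in either direction, with *FKS1*, *CRH1* and *SCW10* lower. The share of all genes was not counted. DESeq2 called *FKS1* and *CRH1* lower, where it called 457 of 5800 genes higher and 516 lower. The calls of *GSC2*, *BGL2* and *EXG1* were kept under all alternatives tried in both stages, with adjusted p no higher than 0.00723, 0.0422 and 0.0364 on glucose and 0.00322, 0.0447 and 0.0261 after the shift.

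**Figure D3:**
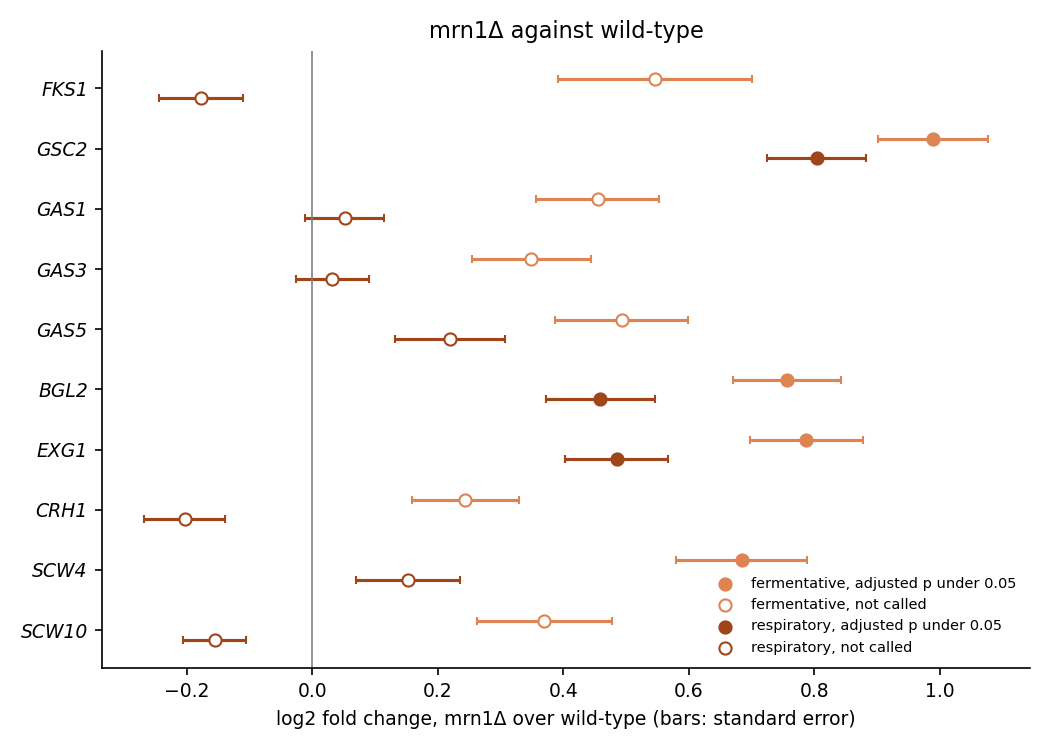
Log2 fold change of mrn1Δ over wild-type (horizontal axis; bars, standard error of the fit on 3 against 3 libraries) for each of the 10 genes in fermentative (light) and respiratory (dark) growth, with filled points for an adjusted p under 0.05. All 10 values are above 0 in fermentative growth, from 0.24 to 0.99, and every respiratory value lies to the left of the fermentative value of its gene.

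The shift lowered 5 of the 10 genes in wild-type (*EXG1*, *SCW10*, *GAS1*, *GAS3* and *FKS1*) and raised 1, *GSC2*, where 36.4% of all genes were called lower and 38.6% higher. These counts come from the unpaired fit. With the wild-type cultures paired by replicate number, a pairing that was not established, *SCW4* was also called higher. The median of the 10 genes in the unpaired fit was -0.40 against 0.04 over all genes tested. In *mrn1Δ* the shift lowered 9 and raised *GSC2*, where 40.3% of all genes were called lower and 43.2% higher, and the median was -0.86 against 0.05. Each genotype's shift shares its fermentative libraries with the genotype comparison on glucose, so that the counts are not separate evidence. On TPM, the median of all genes tested rose by 0.34 in wild-type and 0.40 in *mrn1Δ* with the shift, and *GAS5*, *BGL2* and *CRH1*, which were not called in wild-type, had TPM ratios of 0.17, 0.16 and 0.19 there, above 0 but below that median.

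**Figure D4:**
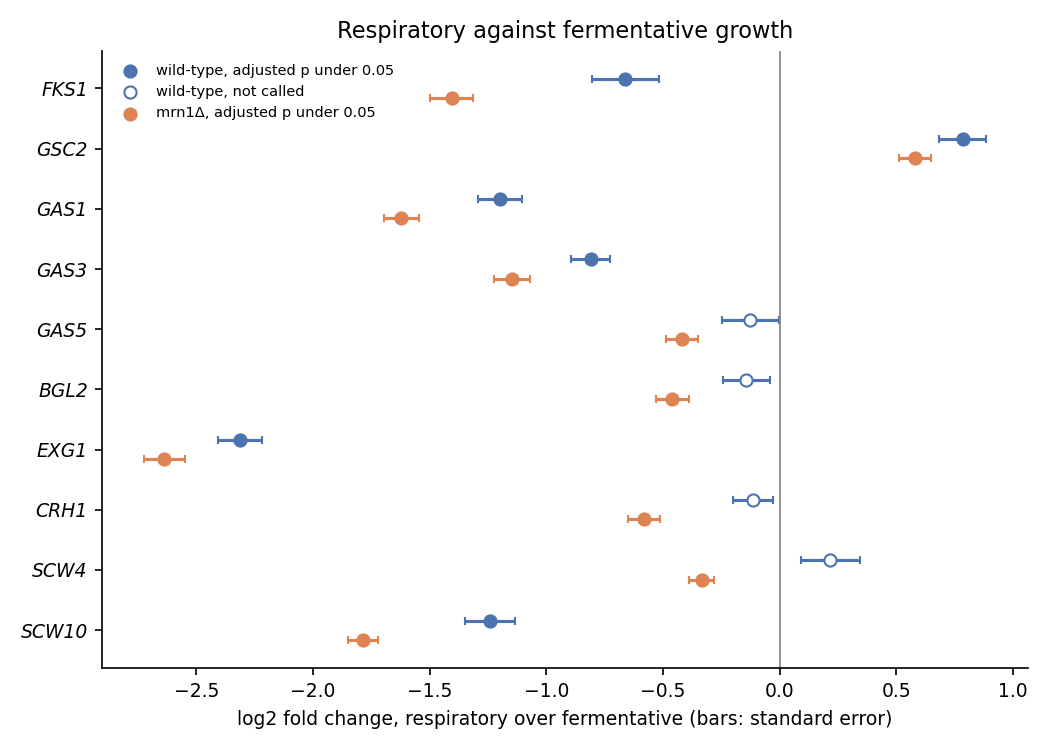
Log2 fold change of respiratory over fermentative growth (horizontal axis; bars, standard error of the fit on 3 against 3 libraries) for each of the 10 genes in wild-type (blue) and mrn1Δ (orange), with filled points for an adjusted p under 0.05. EXG1 lies farthest left, at -2.31 and -2.64, GSC2 lies right of 0 in both genotypes, and every mrn1Δ value is left of the wild-type value of its gene.

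The difference between these responses was tested as an interaction of genotype and stage over all 12 libraries. It called 3 of the 10 genes lower and 0 higher, where 2.11% of all genes were called lower and 1.12% higher. The called genes were *FKS1* (-0.72 ± 0.18, adjusted p = 0.0449), *SCW10* (-0.52 ± 0.13, adjusted p = 0.0449) and *CRH1* (-0.44 ± 0.11, adjusted p = 0.0464), the genes in which *mrn1Δ* stood above wild-type on glucose and below it after the shift. The value was negative for 10 of 10, with a median of -0.36 against 0.01 over all genes. An unadjusted p under 0.05 was reached by 8, a share that was not counted over all genes. The interaction subtracts the genotype difference on glucose, which was positive for all 10, so the shared sign is not separate evidence. The uncalled genes closest to the threshold were *SCW4* (-0.53 ± 0.15, adjusted p = 0.0693) and *GAS1* (-0.40 ± 0.12, adjusted p = 0.0894). The calls sat close to the threshold, and those of *FKS1* and *SCW10* were lost in 9 and that of *CRH1* in 10 of the 12 fits without a library. Without wild-type fermentative replicate 2, or without *mrn1Δ* fermentative replicate 3, 5 genes were called.

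Levels per length also set the genes apart from each other. In wild-type cells on glucose *GAS1* led with 967 ± 98.1 TPM (mean ± SD, n = 3), followed by *BGL2* at 633 ± 39.8 and *SCW4* at 553 ± 83.3, which overlapped. *FKS1* at 359 ± 82.2 and *SCW10* at 304 ± 48.8 also overlapped, and *EXG1* stood alone at 193 ± 7.72. *CRH1*, *GAS5* and *GAS3* overlapped at 145, 143 and 121 TPM, and *GSC2* was lowest at 41.9 ± 5.20. After the shift *SCW4* led wild-type cells at 790 TPM with *BGL2* overlapping at 706, *GAS1* came next at 519, and *EXG1* was last at 48.0.

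In *mrn1Δ* cells on glucose the order of the first 6 was that of wild-type, from *GAS1* at 1330 to *EXG1* at 336 TPM, and neighbours among them did not overlap. *GSC2* remained last at 83.3 TPM. After the shift *BGL2* at 999 and *SCW4* at 904 TPM overlapped at the top, and *GSC2* at 159 overlapped *CRH1* at 147, which overlapped *SCW10* at 146. *GSC2* stood above 57.6% of all genes in wild-type cells on glucose and above 82.9% in shifted *mrn1Δ* cells, whereas *EXG1* stood above 88.7% and 63.7%.

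The bases before the start codons were searched for letters known from wall and cell-cycle genes, on both strands and over 500 bases. The word CACGAAA, bound by the G1 factor SBF, was in 3 of the 10 and in 7.11% of 5890 promoters. The MCB word ACGCGT of S-phase genes was in 2 of 10 and 5.47%, and the motif of Rlm1, the factor downstream of the wall integrity kinase, in 2 of 10 and 1.80%. The stress response word AGGGG was in 0 of 10 and 34.1%. The matches among the 10 genes are shown in capitals within 30 bases of the coding strand. A match is a description of letters and not of binding.
*GSC2*, SBF word, chrVII:547862-547891, plus strand: agagtgtgtgaCACGAAAttcaagatacaa
*GAS1*, SBF word on the opposite strand, chrXIII:886678-886707, plus strand: ttacactgagtTTTCGTGccgcaaacgtgg
*CRH1*, SBF word on the opposite strand, chrVII:878484-878513, minus strand: gagggcttgctTTTCGTGgtatgggatacg
*CRH1*, MCB word, chrVII:878594-878623, minus strand: gttgaattgatgACGCGTtttcccagccca
*SCW10*, MCB word, chrXIII:880558-880587, minus strand: aacaaacgtcgcACGCGTttgaaagttatt
*GAS5*, Rlm1 motif, chrXV:268054-268083, plus strand: tttgcttataCTATAAATAGgaaggtccct
*BGL2*, Rlm1 motif, chrVII:1058924-1058953, minus strand: atatgcagttCTATTTTTAGtaaaagaaac
Of the genes with an SBF word, *GSC2* rose with the shift in wild-type, *GAS1* fell and *CRH1* was not called. On glucose they lay above wild-type in every *mrn1Δ* library, like all 10 glucan genes. *GAS5* and *BGL2*, with the Rlm1 motif, were both uncalled in the wild-type shift, as were *CRH1* and *SCW4* without it. In the *mrn1Δ* shift *GAS5* and *BGL2* were both called lower. The part of these words in the changes was not tested.

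Other genes of the pathway showed how far the pattern reached. Of 10 further β-1,3-glucan enzyme genes, 1 was called higher in *mrn1Δ* on glucose, where 0.588% of all genes were. This was *SCW11*, a daughter-cell separation gene of the *SCW* family. It measured 136.9 normalized CPM against 73.3 in wild-type (0.91 ± 0.11, adjusted p = 0.00713), and this difference shrank after the shift (interaction -0.77 ± 0.15, adjusted p = 0.0153). The median of the list was -0.04 against 0.52 for the 10 glucan genes. The list also held genes of much lower level. Its means ran from 3.88 to 213 TPM in wild-type cells on glucose, against 41.9 to 967 for the 10 glucan genes. Both sets were chosen with earlier results of these data known, so the contrast is a description and not a test. After the shift 2 were lower in *mrn1Δ*, where 7.83% of all genes were called lower. These were *UTR2* and the endoglucanase gene *DSE4* (-0.34 ± 0.06, adjusted p = 0.00731), and *UTR2* also passed the interaction test (-0.62 ± 0.11, adjusted p = 0.00921). With the shift in wild-type 2 rose and 6 fell, where 38.6% of all genes were called higher and 36.4% lower. *UTR2* and *GAS2*, a glucanosyltransferase gene known from spore wall formation, fell most, the latter from 152.2 to 44.6 normalized CPM (-1.75 ± 0.10, adjusted p = 3.1e-07). In *mrn1Δ* 2 rose and 8 fell, where 43.2% of all genes were called higher and 40.3% lower.

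For β-1,6-glucan, 0 of 9 genes were called on glucose in the main fit, with a median of 0.22. Every *mrn1Δ* library stood above every wild-type library for 5 of the 9, where 10.3% of all genes did. These 5 were 1.16- to 1.32-fold higher, against 1.18- to 1.98-fold for the 10 glucan genes. After the shift 3 of 9 were higher in *mrn1Δ*, namely *SKN1* (0.39 ± 0.06, adjusted p = 0.00196), *KEG1* (0.37 ± 0.11, adjusted p = 0.0397) and *KRE9* (0.20 ± 0.05, adjusted p = 0.0274), which all act in the assembly of that polymer. In that comparison 6.79% of all genes were called higher. The shift raised 3 and lowered 3 in wild-type and raised 5 and lowered 3 in *mrn1Δ*, where 38.6% and 43.2% of all genes were called higher and 36.4% and 40.3% lower. In chitin synthesis 0 of 9 genes were called on glucose. Without overlap, 3 lay above and 1 below wild-type, where 10.3% of all genes lay above. After the shift 1 was lower in *mrn1Δ*, *SKT5*, which activates chitin synthase III (-0.23 ± 0.06, adjusted p = 0.0332), where 7.83% of all genes were called lower. The shift raised 2 and lowered 4 of the chitin genes in wild-type, and raised 2 and lowered 7 in *mrn1Δ*, against the shares of all genes given above.

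A further 21 genes serve control of the synthase and wall integrity signalling, from the sensors through Rho1 to the kinases. Of these, 0 were called between genotypes on glucose. Without overlap, 4 lay above and 1 below wild-type there, where 10.3% of all genes lay above. The shift raised 13 and lowered 1 in wild-type (median 0.61), where 38.6% of all genes were called higher and 36.4% lower, and in *mrn1Δ* it raised 13 and lowered 4, where the shares were 43.2% and 40.3%. After the shift the sensor genes *MTL1* (0.34 ± 0.07, adjusted p = 0.0112) and *WSC1* (0.20 ± 0.06, adjusted p = 0.0452) and *SWI6*, a subunit of SBF (0.19 ± 0.05, adjusted p = 0.036), were higher in *mrn1Δ*, and *RLM1* was lower (-0.25 ± 0.06, adjusted p = 0.0148). In that comparison 6.79% of all genes were called higher and 7.83% lower. Of 3 genes for the supply of UDP-glucose 2 rose with the shift in each genotype and 1 fell, and 0 were called between genotypes in either stage. *PGM2*, which encodes the main phosphoglucomutase, rose in wild-type from 46.7 to 1273 normalized CPM (4.79 ± 0.15, adjusted p = 1.9e-08), and *UGP1*, whose product makes UDP-glucose, from 351.5 to 1897 (2.46 ± 0.10, adjusted p = 7.5e-08).

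Among the markers, *JEN1*, a lactate transporter gene of the carbon shift, was higher in shifted *mrn1Δ* than wild-type cells, at 1462 against 661.8 normalized CPM (1.14 ± 0.11, adjusted p = 1.4e-04, interaction 1.31 ± 0.17, adjusted p = 0.00167). *STE6*, the **a**-factor exporter gene, was also higher there (0.26 ± 0.06, adjusted p = 0.0197). Of the 6 carbon shift markers *JEN1* was the only one called in that comparison, with fitted values positive for 4 and negative for 2, and their summed level was 7508 to 8644 normalized CPM in wild-type and 9020 to 9875 in *mrn1Δ* respiratory libraries. The part of these markers in the glucan results was not tested.

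**Figure D5:**
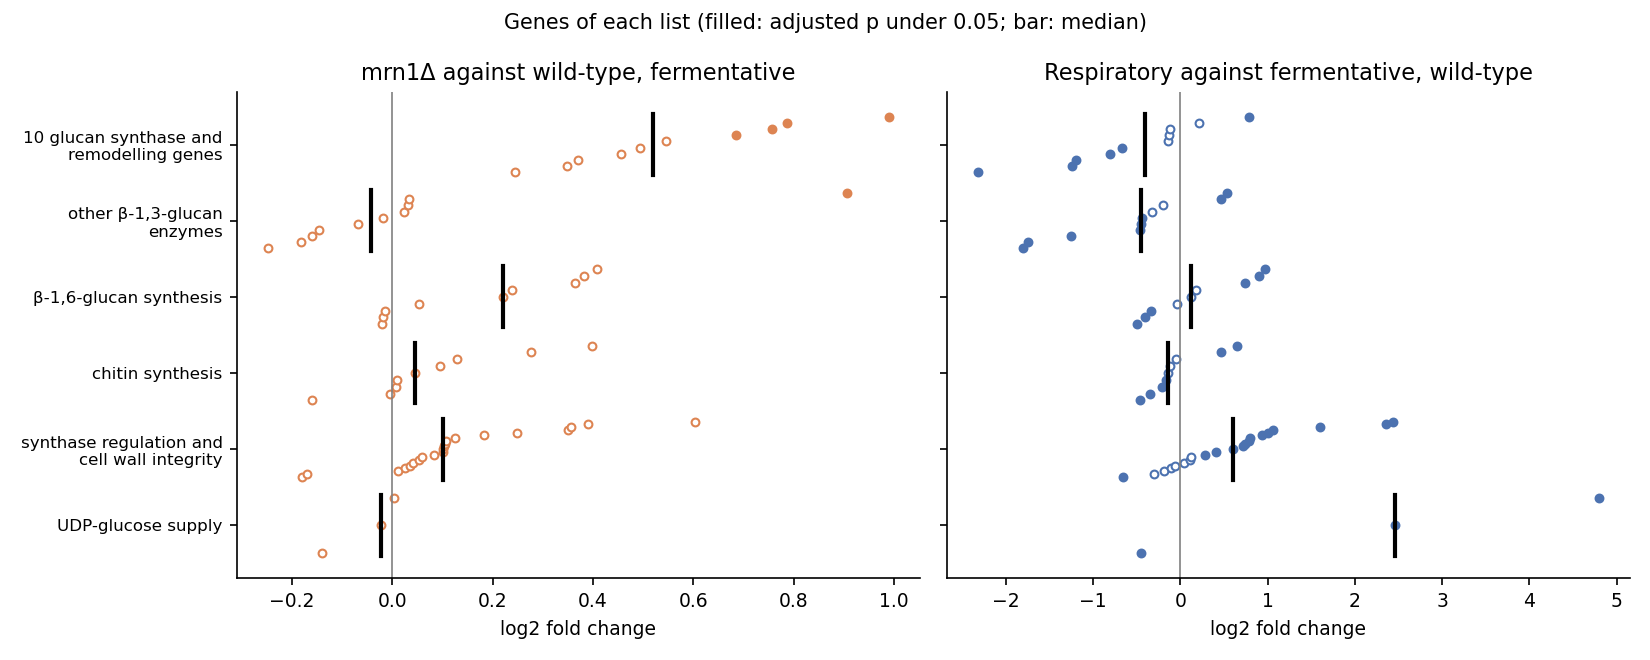
Log2 fold change of each gene in 6 lists (rows) for mrn1Δ over wild-type in fermentative growth (left) and respiratory over fermentative growth in wild-type (right), with filled points for an adjusted p under 0.05 and a black bar at each list's median; vertical spread within a row only separates points. The 10 glucan genes have the highest median on the left, at 0.52, and the UDP-glucose genes on the right, at 2.46, where the regulators have 0.61 and the glucan genes -0.40. All lists were chosen with earlier results of these data known.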

How the data were processed

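Ribosomal RNA was depleted from total RNA and libraries were made with NEBNext Ultra II. The authors deposited estimated counts per coding sequence (kallisto 0.44.0 and build R64, per the submitters' processing notes) and a TPM value; the strand setting is not given in the sources used here. Counts were rounded. Each pairwise comparison was fitted on its own 6 libraries, and the interaction on all 12, with edgeR 4.0.16 in R 4.3.3 (TMM, default filter, robust quasi-likelihood test, Benjamini-Hochberg adjustment over all genes tested). Calls used an adjusted p under 0.05, and SE was derived from the F statistic. Shares of all genes at an unadjusted p under 0.05 were not counted. Normalized CPM used TMM factors over 12 libraries, where 3 counts were 0.113 to 0.185 CPM, which covers counting error only. The fit was tested on simulated data.

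All 10 members passed the filter. Members and lists were chosen with earlier results of these data known. Text names all members, *MRN1*, and genes of other lists called between genotypes or in the interaction. It also names the 2 largest called changes per direction in the wild-type shift. *FKS3*, *PXR1*, *YOR1*, *ADH2*, *MFA1*, *MF(ALPHA)2* and the auxotrophic markers are named for position or labels only. Deviations of same-numbered wild-type libraries correlated across the shift at 0.197, 0.198 and 0.122. Differently numbered libraries of the genotypes reached 0.225 in the respiratory stage, so these values do not establish a pairing. The main fit of that shift was unpaired, with pairing by number as an alternative. Coordinates and sequences came from RefSeq R64, matched for 5911 of 5917 names, with proteins translated and aligned (BLOSUM62, Biopython 1.88). Alternatives were DESeq2 1.42.0, RLE and upper-quartile factors, no filter, a minimum of 10 counts per library, a joint fit of all 12, a replicate block, each library left out and, chosen after seeing the data, TPM ratios.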

Additional observations from a re-analysis of the deposited data

Results flagged for a closer look

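For 3 glucan genes the effect of the deletion differed between the stages by the interaction test over all 12 libraries, with the difference in log2 fold change (respiratory minus fermentative) at -0.717 for *FKS1*, -0.443 for *CRH1* and -0.521 for *SCW10*. In each the *mrn1Δ* libraries lay above wild-type on glucose and below it after the shift. Adjusted p-values were 0.0449, 0.0464 and 0.0449 with edgeR. Over the alternatives they ranged from 0.00218 to 0.114 for *FKS1*, from 0.00252 to 0.12 for *CRH1* and from 0.0024 to 0.107 for *SCW10*.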

How the results depend on the processing

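On glucose, DESeq2 and the fit over all 12 libraries called 9 members higher in place of 4, and fits without a library 3 to 7. Over all genes DESeq2 called 151 higher and 54 lower there against 34 and 19, the fit over all 12 libraries 132 and 60. After the shift DESeq2 and upper-quartile factors called 2 members lower in place of 0 and the replicate block 1; over all genes upper-quartile factors gave 260 higher and 577 lower against 394 and 454. In the wild-type shift the replicate block raised 2 members in place of 1, and fits without a library 1 to 2. The interaction called 5 members lower with DESeq2 in place of 3, 4 with the replicate block, and 0 to 5 in fits without a library; over all genes DESeq2 called 116 higher and 323 lower against 65 and 123. In the other pairwise comparisons same-numbered libraries correlated at -0.161 to 0.204, and the replicate block moved the fermentative count to 5. *GAS3* in the respiratory stage changed sign with upper-quartile factors (-0.003) and without wild-type respiratory replicate 2 (-0.002, range 0.083 to -0.002 without a library), and *GAS5* in the wild-type shift without wild-type fermentative replicate 2 (0.001, range -0.243 to 0.001). The ratio of mean TPM for *SCW4* in the *mrn1Δ* shift was 0.020 against -0.333. Causes of these changes were not tested. Leaving out a library ended 32 calls of members in all, which were those of *SCW4* on glucose and of *FKS1*, *SCW10* and *CRH1* in the interaction.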
